A study of Danio rerio with 21 samples.

Results

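A set of 9 heat shock protein and chaperone genes was followed in the adult zebrafish telencephalon after chronic gamma irradiation. They were hspa8, hsp90aa1, hsp90ab1, hspa5, hspd1, hspe1, hspb1, hsf1 and dnajb1b. They were picked by name, with earlier results of these data known, out of 32057 genes counted. The gene named hspa8 was read from ENSDARG00000037403 and hsp90aa1 from ENSDARG00000024746, and each of the other members was the only gene with its name. The name hspa8 is shared by 2 gene IDs, and the values of the other copy are given apart.

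The study asked how chronic gamma rays at dose rates in the low to moderate range change gene expression and behavior in adult fish. All fish were wild type adults of the AB strain, and the irradiated fish were exposed continuously for 36 days while controls were kept unexposed. Each of the 21 libraries was made from a pool of several telencephalons. Males and females were balanced by condition, and the sexes within a pool are not given in the sources used here. All fish, controls included, were killed by cold on ice. In batch 1 there were 3 libraries of controls, 3 of fish kept at 0.5 mGy/h and 3 of fish kept at 5 mGy/h. In batch 2 there were 6 of controls and 6 of fish kept at 0.05 mGy/h. The controls of a batch served only for the dose rates of that batch.

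Molecular chaperones bind unfolded protein and keep it from aggregating. HSP70 proteins such as the one encoded by hspa8 bind exposed hydrophobic stretches and release them in a cycle driven by ATP, J-domain proteins such as dnajb1b deliver the client and start ATP hydrolysis, and HSP90 acts later on kinases, hormone receptors and other clients. In the cytosol of animal cells, unfolded protein releases the transcription factor HSF1, which switches on inducible heat shock genes, while the endoplasmic reticulum and the mitochondria have their own chaperones and their own stress responses. Neurons live long and do not divide, and constitutive HSP70 also uncoats clathrin vesicles at their synapses.

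The libraries held 19 to 71.6 megacounts on genes, and values are given as CPM (counts divided by the megacounts of the library, after TMM scaling within the batch), which are not divided by gene length and so do not compare one gene with another. A count of 3, taken as the floor of detection for counting error only, corresponded to 0.0419 to 0.158 CPM, so that every member was far above it. The markers of telencephalic neurons were 8 gene names with 11 gene IDs. Each name reached 1 CPM in at least 1 library of every group, and the IDs summed to 1494 to 1898 CPM per library. A gene was called when edgeR's quasi-likelihood test gave a false discovery rate (FDR, Benjamini-Hochberg over all genes tested) under 0.05 and the fold change was at least 1.5. P-values measured the spread between these pools only, and in pooled tissue a change in the number of cells of a type and a change in RNA per cell cannot be told apart.

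A pair of libraries stood apart from the others of their groups. In replicate 6 of the batch 2 controls, 8 of the 9 members were above all 5 other controls and hsf1 was below them, with a median ratio of 2.27 to the mean of the other controls, while over 17203 genes of at least 1 CPM 43.6% were above and 42.9% below. In this library the summed level of 8 preoptic and hypothalamic markers was 1316 CPM against 58.7 to 161 CPM in the other 5 controls. Of these 8 markers, oxt alone reached 1255 CPM, and 3 were under 1 CPM in every control of the batch, among them agrp, which was at 0. The 6 radial glia markers summed to 7142 CPM against 3023 to 3827 CPM and the 4 microglia markers to 796 CPM against 189 to 278 CPM. Of the microglia sum apoeb alone made up 792 CPM, while csf1ra and p2ry12 were below all other controls. Only 2 of these 4 microglia markers averaged at least 1 CPM in the other 5 controls, and 1 was under 1 CPM in every control of the batch. The 11 telencephalic neuron markers summed to 1831 CPM against 1539 to 1655 CPM, but 5 were above and 5 below all other controls, with a median ratio of 0.89. Among those below was slc17a7, a vesicular glutamate transporter, at 15.1 CPM against 94.8 to 141 CPM. It also held 8.66% unmapped reads against 5.02% to 5.73%. The part of these differences in the chaperone levels was not tested. In batch 1, replicate 1 at 5 mGy/h was above both other libraries of its group for 6 members and below them for hsf1, where 45.5% of 17557 genes were above and 42.4% below. The comparisons at 0.05 mGy/h and at 5 mGy/h are given with and without these libraries. Control replicate 6 was set apart because earlier results of these data had shown it apart for hspa8 and hsp90aa1. It was the highest control for these genes, so leaving it out raised their fold changes and narrowed their intervals. Their FDRs, calls and ranks without it are therefore conditional on a choice made on their own values.

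**Figure D1:**
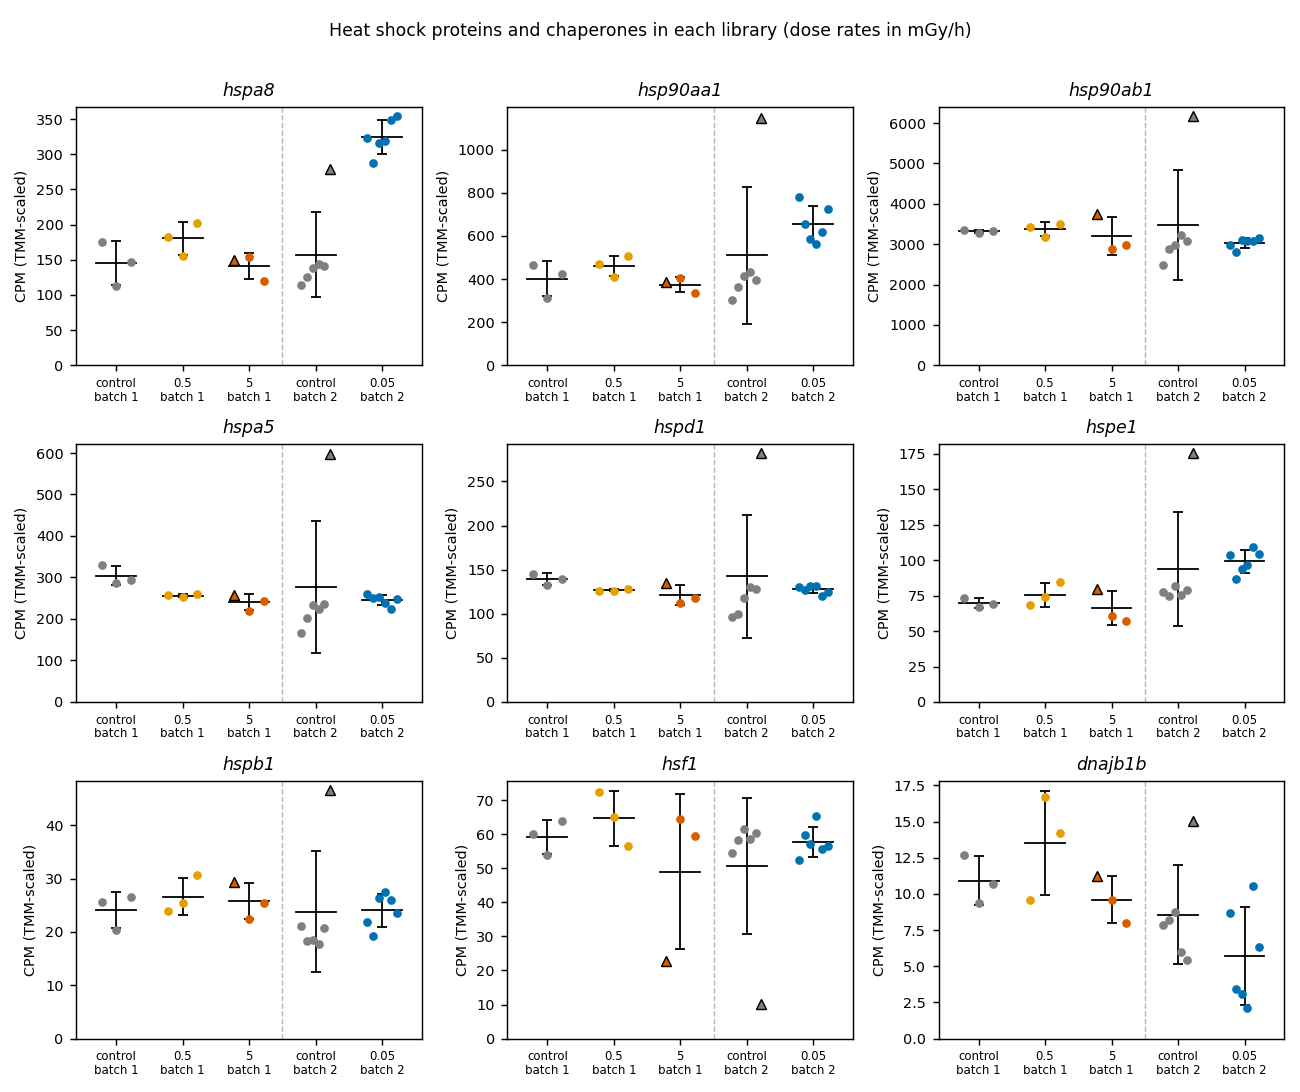
Normalised level (CPM, vertical axis) of the 9 members in each of the 21 libraries, by group, with the mean as a black line and the SD as a bar. Triangles with a black edge mark control replicate 6 of batch 2 and replicate 1 at 5 mGy/h. The 6 libraries at 0.05 mGy/h lie between 287 and 354 CPM for hspa8, above every control of batch 2. Levels were scaled within each batch.

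The HSP70 gene hspa8 was higher at 0.05 mGy/h than in every control of its batch. It encodes the constitutive cytosolic HSP70, called HSC70 in mammals. In the controls of batch 2 its level was 114 CPM at the lowest, 140 CPM at the median and 279 CPM at the highest, the last in replicate 6. In the libraries at 0.05 mGy/h it was 287 CPM at the lowest, 321 CPM at the median and 354 CPM at the highest. All 6 irradiated libraries thus lay above all 6 controls, and the highest of the other 5 controls stood at 145 CPM.

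With all 6 controls the fold change of hspa8 was 2.07 (95% confidence interval 1.55 to 2.76). The unadjusted p of edgeR's quasi-likelihood test was 0.000109, the fourth lowest of 19454 genes, but with Benjamini-Hochberg adjustment the FDR was 0.532 and the gene was not called. DESeq2 on the same libraries gave a log2 fold change of 1.06 and an adjusted p of 0.00101, and called it. Without control replicate 6, hspa8 rose 2.44-fold (2.19 to 2.73) at an FDR of 4.7e-06 by edgeR's quasi-likelihood test with Benjamini-Hochberg adjustment, the lowest p of 19527 genes. The control level was 133 ± 12.5 CPM (SD, n = 5) without replicate 6, and the SE of the log2 fold change was 0.074 rather than 0.19. Replicate 6 had been set apart for its values of this gene, so this interval, FDR and rank are conditional on that choice.

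For hsp90aa1, the inducible cytosolic HSP90, the irradiated libraries also lay above the 5 other controls, but not above replicate 6. Its level in the controls of batch 2 was 302 CPM at the lowest, 406 CPM at the median and 1148 CPM at the highest, again in replicate 6. At 0.05 mGy/h it was 564 CPM at the lowest, 637 CPM at the median and 778 CPM at the highest. The groups therefore overlapped with all controls, and did not overlap once replicate 6 was left out, when the highest control stood at 432 CPM.

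The log2 fold change of hsp90aa1 with all 6 controls was 0.36 (95% interval -0.25 to 0.97), with an FDR of 0.739 in edgeR's quasi-likelihood test with Benjamini-Hochberg adjustment. Without control replicate 6 it rose 1.71-fold (1.47 to 2.00) at an FDR of 0.0169. Replicate 6 had been set apart for its values of hsp90aa1 too, so this FDR is conditional on that choice. With the replicate number as a block in the same edgeR quasi-likelihood model, the log2 fold change was 0.74 and the FDR was 0.139, so that this call was lost, while hspa8 kept its call with 1.26 at an FDR of 0.000198. The call of hsp90aa1 was also lost when a further library was left out, at an FDR of 0.0871 without control replicate 2, 0.0594 without control replicate 3, 0.0522 without irradiated replicate 1 and 0.0553 without irradiated replicate 2. The log2 fold change then stayed between 0.70 and 0.82 over all libraries left out in turn.

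The constitutive HSP90 gene, hsp90ab1, was much alike in both groups. In the controls of batch 2 it was 2482 CPM at the lowest, 3040 CPM at the median and 6188 CPM at the highest, and at 0.05 mGy/h it was 2805, 3079 and 3160 CPM. Only replicate 6 was outside the range of 2482 to 3218 CPM that the other 11 libraries spanned. Without it the log2 fold change was 0.05 with a 95% interval of -0.09 to 0.19.

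Because replicate 6 was high for both HSP90 genes and for hspa8, the counts were also expressed as a percentage of the hsp90ab1 counts in the same library. This scale was chosen after the values had been seen and carries no test. The hspa8 counts were 4.37% to 4.64% of the hsp90ab1 counts in the 6 controls of batch 2, replicate 6 included, with a mean of 4.53% ± 0.0953 (SD, n = 6). At 0.05 mGy/h they were 10.2% to 11.4%, with a mean of 10.7% ± 0.515 (SD, n = 6), which is 2.36 times the control mean. On this scale replicate 6 lay inside the range of the other controls for hspa8, and the groups did not overlap. Replicate 6 was raised about equally for hspa8 and hsp90ab1, so its place in that range followed from the scale chosen. It is no separate check of the hspa8 difference. On the same scale replicate 6 stayed above the other controls for hspa5 (9.66% against 6.72% to 7.82%) and hspd1 (4.56% against 3.49% to 4.14%). For hspe1 and hspb1 it lay inside their range. In batch 1 the hspa8 percentage was 3.45% to 5.24% in the 3 controls, a wider range than in batch 2. It was 4.90% to 5.78% at 0.5 mGy/h and 3.99% to 5.35% at 5 mGy/h, with overlap. The hsp90aa1 counts were 12.2% to 18.6% of hsp90ab1 in the controls, highest in replicate 6, and 18.3% to 26.1% at 0.05 mGy/h, 1.55 times the control mean with overlap.

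**Figure D2:**
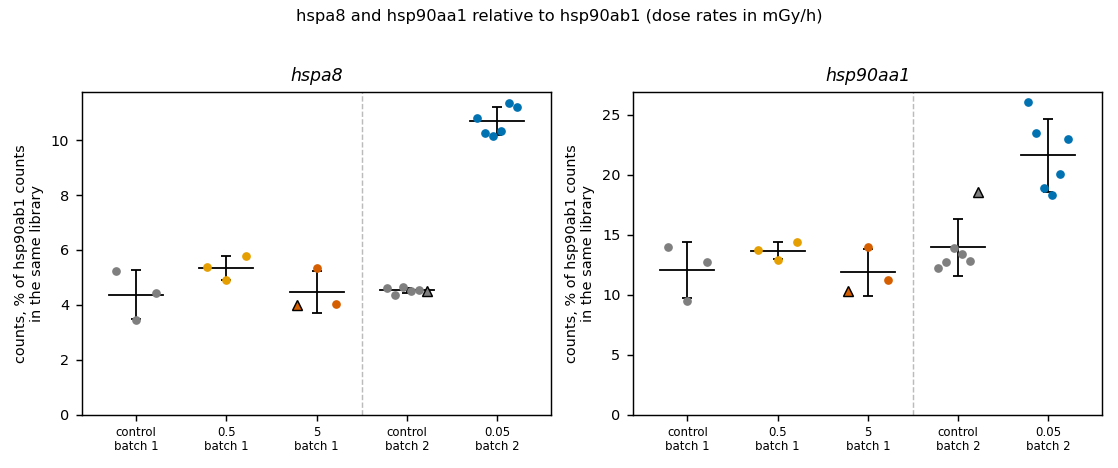
Counts of hspa8 and of hsp90aa1 as a percentage of the hsp90ab1 counts of the same library (vertical axis), by group, with means as lines, SD as bars and triangles for the libraries that stood apart. The hspa8 percentage is 4.37 to 4.64 in the controls of batch 2 and 10.2 to 11.4 at 0.05 mGy/h.

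The mitochondrial pair hspd1 and hspe1 encodes the chaperonin HSP60 and its lid HSP10, and the genes lie next to each other in the zebrafish RefSeq annotation. At 0.05 mGy/h, hspe1 was 86.7 CPM at the lowest, 100 CPM at the median and 109 CPM at the highest. In the controls it was 74.8, 78.2 and 176 CPM, with replicate 6 highest and the next at 81.8 CPM. Without replicate 6 the groups did not overlap, and the log2 fold change was 0.35 (95% interval 0.21 to 0.49) at an FDR of 0.0875 by edgeR's quasi-likelihood test with Benjamini-Hochberg adjustment, which missed the threshold. For hspd1 the controls held 96.4, 123 and 282 CPM at the lowest, median and highest, and the irradiated libraries 120, 129 and 132 CPM. These groups overlapped, and without replicate 6 the log2 fold change of hspd1 was 0.16.

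The endoplasmic reticulum chaperone hspa5, called BiP in mammals, was 167, 228 and 598 CPM at the lowest, median and highest control and 225, 249 and 261 CPM at 0.05 mGy/h. The small heat shock protein gene hspb1, which binds unfolded protein without ATP, was 17.6, 19.6 and 46.7 CPM in the controls and 19.2, 24.8 and 27.4 CPM at 0.05 mGy/h. In both genes the irradiated libraries overlapped with the controls. Without replicate 6 the log2 fold changes were 0.21 for hspa5 (unadjusted p = 0.0258) and 0.32 for hspb1 (unadjusted p = 0.0053), with FDRs of 0.558 and 0.429 in edgeR's quasi-likelihood test with Benjamini-Hochberg adjustment.

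The regulator hsf1 was 52.5, 56.8 and 65.4 CPM at the lowest, median and highest library at 0.05 mGy/h. In the controls it was 10.2, 58.6 and 61.5 CPM, and the value of 10.2 CPM was that of replicate 6, where most other members were highest. Without it the log2 fold change of hsf1 was -0.02 and the groups overlapped. The J-domain gene dnajb1b was 5.44, 8.01 and 15.0 CPM in the controls and 2.14, 4.89 and 10.6 CPM at 0.05 mGy/h. The groups overlapped widely, and its log2 fold change was -0.57 with all controls (95% interval -1.40 to 0.25) and -0.33 without replicate 6.

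With all 6 controls, no member was called at 0.05 mGy/h, where 0.00514% of the 19454 genes tested were. One member, hspa8, had groups that did not overlap, with the irradiated libraries above, against 0.314% of all genes. Without control replicate 6, 2 of the 9 members were called, both higher, against 0.0358% of 19527 genes called in that direction. Then 3 members, hspa8, hsp90aa1 and hspe1, lay wholly above the controls, against 0.553% of all genes. The members were chosen with earlier results of these data known, so these shares do not test the set. The summed markers of microglia (183 to 295 CPM at 0.05 mGy/h), red blood cells (78.0 to 139 CPM, against 62.7 to 121 CPM) and preoptic and hypothalamic neurons (79.6 to 153 CPM) overlapped between the irradiated libraries and these 5 controls. Those of endothelium went the other way from those of radial glia, at 94.6 to 120 CPM against 95.3 to 104.5 CPM. Those of radial glia were 2713 to 3561 CPM against 3023 to 3827 CPM, with 4 of the 6 irradiated libraries below every control. Of the 6 radial glia markers 6 were lower (median log2 fold change -0.16, 1 at an unadjusted p under 0.05), and of the 5 oligodendrocyte markers 5 were lower (-0.10, 1 at an unadjusted p under 0.05). Their part in the chaperone levels was not tested.

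**Figure D3:**
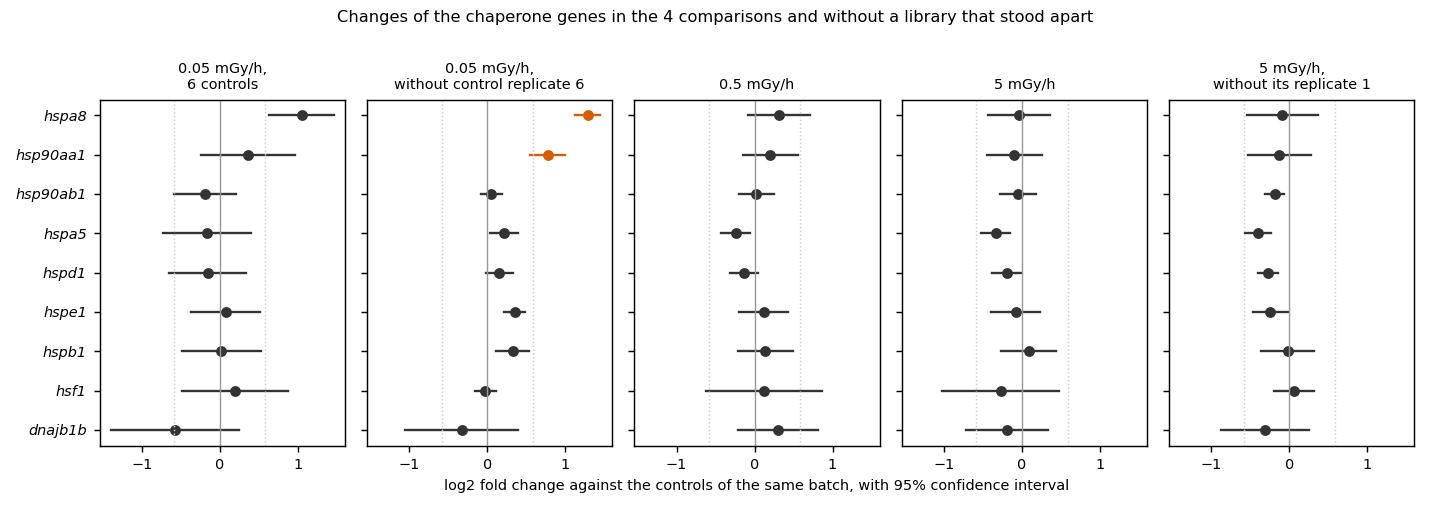
Log2 fold change of each member (horizontal axis) with its 95% confidence interval in the comparisons of each dose rate with the controls of its batch. Orange marks members past both thresholds, dark grey all other members whatever their p, and dotted lines a fold change of 1.5. At 0.05 mGy/h without control replicate 6, hspa8 (1.29) and hsp90aa1 (0.78) are past the thresholds.

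**Figure D4:**
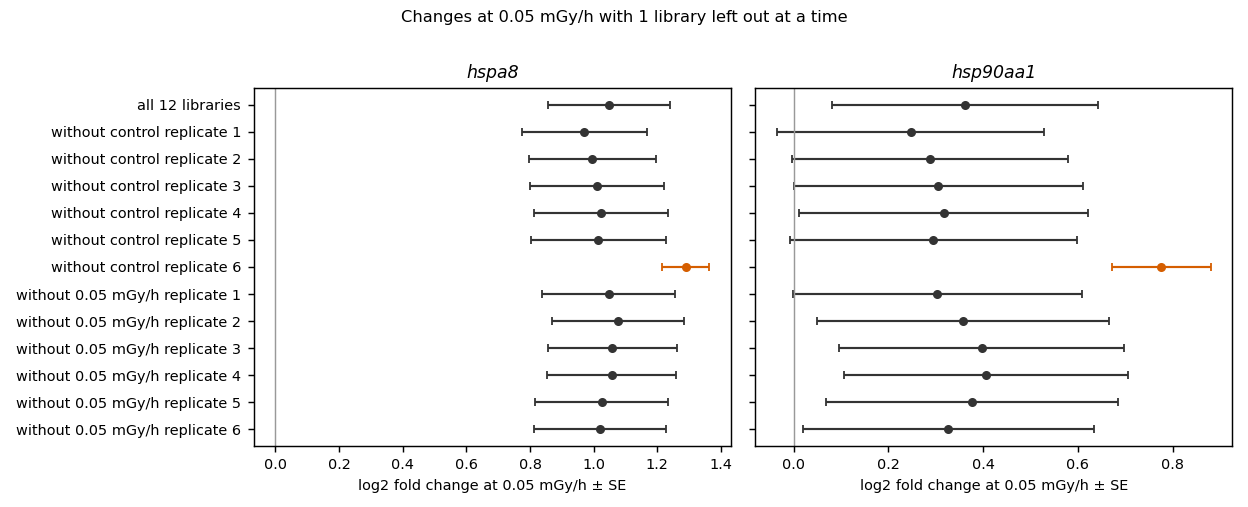
Log2 fold change (horizontal axis) of hspa8 and hsp90aa1 at 0.05 mGy/h when each library is left out in turn, with bars for the SE and orange for an FDR under 0.05. For hspa8 against all 6 controls the values run from 0.97 to 1.29, the last without control replicate 6.

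At 0.5 mGy/h, no member was called, where 0.00939% of 21307 genes were. In the controls of batch 1, hspa8 was 175, 113 and 147 CPM in replicates 1 to 3, and at 0.5 mGy/h it was 183, 156 and 203 CPM. These groups overlapped, with the control replicate 2 lowest, and the log2 fold change was 0.31 (95% interval -0.08 to 0.71). The level of hsp90aa1 was 467, 310 and 425 CPM in these controls and 468, 411 and 505 CPM in the irradiated libraries. These overlapped too, with a log2 fold change of 0.20 (-0.15 to 0.55).

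The member that differed most at 0.5 mGy/h by p was hspa5. It was 330, 287 and 295 CPM in the controls and 257, 253 and 259 CPM in the irradiated libraries. All 3 irradiated libraries were below the controls, and the log2 fold change was -0.24 (95% interval -0.43 to -0.06) with an unadjusted p of 0.0153 and an FDR of 1.00 in edgeR's quasi-likelihood test with Benjamini-Hochberg adjustment. Together with hspd1 (132 to 146 CPM in the controls, 126 to 128 CPM at 0.5 mGy/h), 2 members lay wholly below the controls, where 6.65% of all genes did. The other members overlapped, with log2 fold changes of 0.02 for hsp90ab1, 0.12 for hspe1, 0.14 for hspb1, 0.12 for hsf1 and 0.30 for dnajb1b.

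At 5 mGy/h, no member was called either, where 0.00469% of 21307 genes were. The level of hspa8 was 150, 154 and 120 CPM in the 3 irradiated libraries, inside the range of the controls, and its log2 fold change was -0.04 (95% interval -0.44 to 0.36). The level of hsp90aa1 was 386, 403 and 334 CPM, also inside the control range, with a log2 fold change of -0.10 (-0.45 to 0.25). For hspa5 the irradiated libraries held 258, 220 and 244 CPM, all below the controls, as at 0.5 mGy/h. Its log2 fold change was -0.34 (-0.52 to -0.15), with an unadjusted p of 0.00275 and an FDR of 0.709 in edgeR's quasi-likelihood test with Benjamini-Hochberg adjustment. Both dose rates shared the same 3 controls. It was 1 member wholly below the controls of 9, where 4.95% of all genes were, and hspd1 (113 to 134 CPM) missed it, with a log2 fold change of -0.19.

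Replicate 1 at 5 mGy/h changed this comparison. Its hsf1 level was 22.8 CPM against 64.6 and 59.6 CPM in replicates 2 and 3, its hsp90ab1 level was 3758 CPM against 2882 and 2969 CPM, and its hspe1 level was 79.8 CPM against 60.9 and 57.5 CPM. Leaving it out, which was decided after the values had been seen, left 2 libraries against 3 and moved the count of genes called from 1 to 1457 of 21673 (6.72%). No member was among them. Then hspa5 (log2 fold change -0.40, FDR 0.0137) and hspd1 (-0.28, FDR 0.019) passed the FDR but not the fold change in edgeR's quasi-likelihood test with Benjamini-Hochberg adjustment, where 9.64% of all genes passed the FDR. These genes, hsp90ab1 (-0.19) and hspe1 (-0.24) lay wholly below the controls, where 19.7% of all genes did. The log2 fold changes of hspa8 and hsp90aa1 were -0.09 and -0.13. The 5 pineal markers summed to 105 to 280 CPM at 5 mGy/h against 8.74 to 231 CPM in the controls, and their part in these values was not tested.

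The change at 0.05 mGy/h was set against the changes at the other dose rates as a difference of differences, since they had been run in different batches. Batch and dose rate cannot be told apart beyond what each batch's own controls account for. For hspa8 the log2 change at 0.05 mGy/h exceeded that at 5 mGy/h by 1.09 (95% interval 0.45 to 1.73) with all libraries, at an FDR of 0.851 in edgeR's quasi-likelihood test with Benjamini-Hochberg adjustment. Without control replicate 6 of batch 2 the difference was 1.34 (0.98 to 1.70) at an FDR of 0.00741, and hspa8 was the only gene called of 21387 (0.00468%). That control had been set apart for its values of hspa8 and hsp90aa1, so fits without it are no independent test of these genes. Without replicate 1 at 5 mGy/h the difference for hspa8 was 1.15 (FDR 0.290), where 0% of genes were called. Without both libraries it was 1.36 (0.97 to 1.76) at an FDR of 9.0e-05, where 0.325% of 21528 genes were called in that direction. Against 0.5 mGy/h the difference was 0.74 (0.10 to 1.38, FDR 1.00), and without replicate 6 it was 0.98 (0.62 to 1.34, FDR 0.107), where 0% of genes were called. For hsp90aa1 without replicate 6 the differences were 0.58 against 0.5 mGy/h (FDR 0.793) and 0.89 against 5 mGy/h (FDR 0.208), neither past the threshold. Without replicate 1 at 5 mGy/h as well, the latter was still 0.89, now at an FDR of 0.0101, and was called. In that fit 6.08% of 21528 genes were called in either direction. By p, hsp90aa1 ranked 1010 and hspa8 ranked 281 among them all.

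The 9 members were then set in the wider chaperone network, as lists of 119 genes by name, which hold the members too. The lists were also written with earlier results of these data known. With all 6 controls of batch 2, 111 of these were tested at 0.05 mGy/h and 0 were called, with 4 higher and 0 lower at an unadjusted p under 0.05, which 4.36% of all genes reached. Their median log2 fold change was -0.099, with 41 higher and 70 lower, beside -0.011 for all genes, of which 48.8% were higher. Without replicate 6, hspa8 and hsp90aa1 were the only genes of the lists called, 14 were higher and 2 lower at an unadjusted p under 0.05 (8.06% of all genes in both directions), and the median was 0.038 beside 0.0074, with 52.1% of all genes higher. The sign of the list median thus turned with that library. In it 75 of 106 list genes of at least 1 CPM were above all other controls and 23 were below. Of all genes of at least 1 CPM, 43.6% were above and 42.9% below.

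Without replicate 6, the DNAJ gene dnajb1a, a close relative of dnajb1b, was 16.2 to 20.6 CPM in the controls and 17.4 to 36.8 CPM at 0.05 mGy/h, with a log2 fold change of 0.64 (unadjusted p = 0.00233). The HSP70 exchange factor hsph1 had a log2 fold change of 0.53 (unadjusted p = 0.0198). Among the HSP90 cochaperones, cdc37, which brings kinases to HSP90, had 0.51 (FDR 0.263) and fkbp4, an immunophilin of steroid receptor complexes, had 0.43 (FDR 0.255) in edgeR's quasi-likelihood test with Benjamini-Hochberg adjustment. None of these passed the threshold, and 10 of the 16 cochaperones were higher, where 5 of 16 were higher with all 6 controls (median -0.17). Of 26 tested genes of the endoplasmic reticulum list, 22 were higher and 4 reached an unadjusted p under 0.05, among them calr3b (0.35) and hsp90b1 (0.23), a calreticulin and the HSP90 of that compartment. With all 6 controls 12 were higher and 14 lower (median -0.052), so that this direction also turned with replicate 6. For the TRiC chaperonin, which folds actin and tubulin, 8 of 8 gene IDs were lower with all controls (median -0.28). Without replicate 6, 6 of 8 were higher. These IDs are not the full set of subunits, since cct2 was counted under more than a single ID and cct6a had none.

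At 0.5 mGy/h, 115 list genes were tested and 0 were called, with 4 higher and 4 lower at an unadjusted p under 0.05 (2.51% of all genes) and a median of 0.019 beside 0.0096. Here 12 of 13 cytosolic HSP70 genes were higher, as were 53% of all genes, of which hsp70l, an inducible HSP70, had the lowest p (log2 fold change 0.42, unadjusted p = 0.0357). In the mitochondrial list, hspa9, the HSP70 of that organelle, was 12.4 to 28.4 CPM in the controls and 55.7 to 149 CPM at 0.5 mGy/h (log2 fold change 2.32, unadjusted p = 0.00365). It was not called, and the groups did not overlap, where 4.42% of all genes lay wholly above the controls. This gene varied widely between unexposed pools, at 0.964 to 70.9 CPM in 5 controls of batch 2 and 178 CPM in replicate 6. At 5 mGy/h it was 8.85 to 32.8 CPM. At 5 mGy/h, 0 were called, 0 higher and 8 lower at an unadjusted p under 0.05 (6.49% of all genes), and the median was -0.042 beside 0.027, with 46 higher and 69 lower where 55.5% of all genes were higher. After hspa5, the lowest p of the endoplasmic reticulum list was that of atf4b, a transcription factor of the unfolded protein response, at 3.72 to 7.24 CPM in the controls and 0 to 2.00 CPM at 5 mGy/h. Its log2 fold change was -2.73 (unadjusted p = 0.0104), with no call and no overlap, where 4.95% of all genes lay wholly below the controls. Without replicate 1 at 5 mGy/h, 3 of 115 list genes were called, each higher, where 6.46% of all genes were called in that direction. They were hspa12a (1.79), dnajb2 (0.74) and dnajb1a (0.85), while 26 were higher and 89 lower with a median of -0.12, where 49.9% of all genes were higher.

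Because all fish were killed on ice, the cold-inducible RNA binding genes cirbpa and cirbpb were read beside the chaperones. Neither was called in any comparison with a batch's controls. These comparisons cannot show an effect of the ice, since the controls were killed in the same way. In control replicate 6 of batch 2, 2 of 2 were above all other controls (median ratio 1.205), as were 43.6% of all genes. In replicate 1 at 5 mGy/h, 2 of 2 were above the other libraries of the group (1.277), as were 45.5% of all genes.

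**Figure D5:**
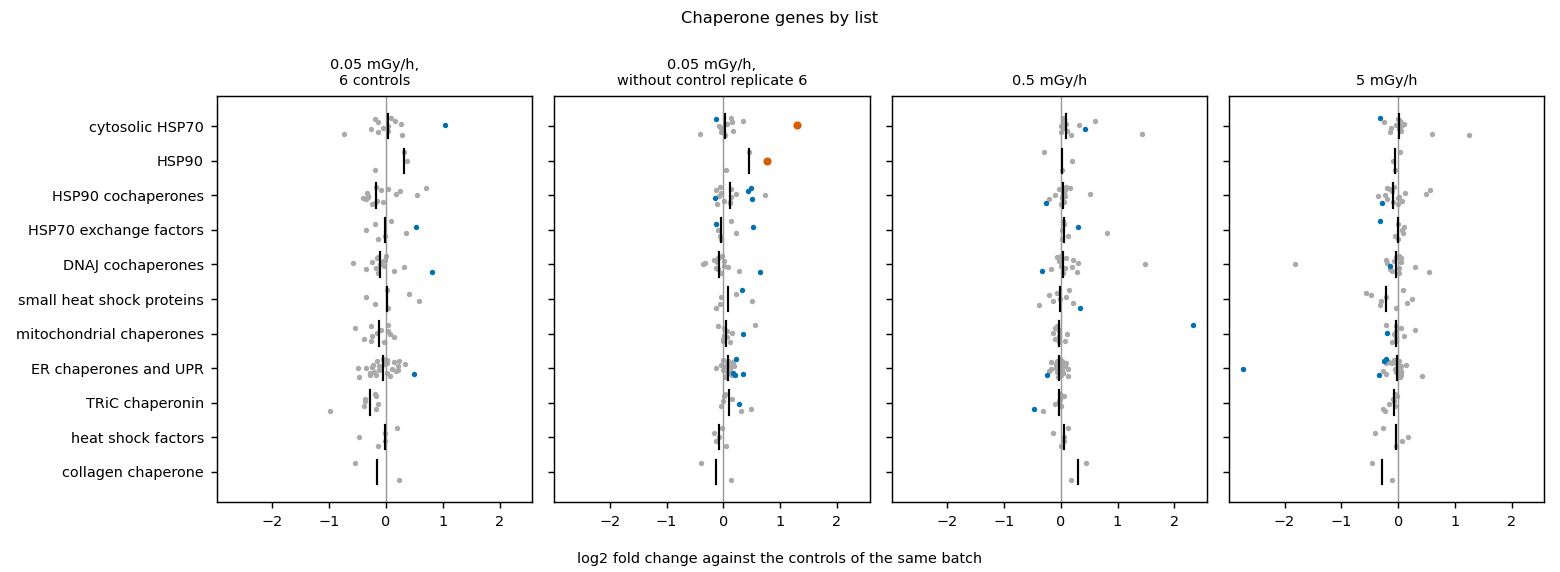
Log2 fold changes (horizontal axis) of the genes of each chaperone list at each dose rate, a point for each gene and a black tick for the list median, with orange for genes past both thresholds and blue for an unadjusted p under 0.05. Orange points at 0.05 mGy/h without control replicate 6 are hspa8 and hsp90aa1.

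The genes whose level ran most alike to hspa8 and to hsp90aa1 were sought among 12993 genes with a mean of at least 5 CPM, from log2 CPM as the difference from the mean of each batch's controls. Over all 21 libraries, Pearson's r with hspa8 was highest for arhgef3l (0.88), hsp90aa1 (0.85), srsf6 (0.85), hnrnpa3 (0.85) and lamb2 (0.84). For hsp90aa1 it was highest for hnrnpa3 (0.87), myef2 (0.86), hspe1 (0.85), hspa8 (0.85) and ENSDARG00000110967 (0.83). With control replicate 6 left out of the correlation, over 20 libraries, hspa8 and hsp90aa1 were the nearest of all 12993 genes to each other, at r = 0.92. The control mean subtracted in batch 2 still held replicate 6, so its weight was not fully removed. That library had been set apart for these same genes. These values are a description, and libraries of a group share their treatment and batch. Over all 21 libraries, replicate 6 included, the correlation of hspa8 with hsf1 was -0.0081 and that with dnajb1b was -0.22. Those of hsp90aa1 were -0.39 with hsf1 and 0.125 with dnajb1b.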

How the data were processed

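RNA had been sequenced from pooled telencephalons. The authors aligned the reads to GRCz11 with Ensembl annotation using STAR and deposited raw counts per gene for each library, without normalization. The counts of the strand of the stranded library kit were used, and 39.9% to 45.0% of reads were not on a gene. Of 32057 gene IDs, 28988 had a name in the tables used. Gene lengths were not used here, and hspa8 copies or other near-identical genes may share reads. Groups and replicate numbers came from the labels.

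Counts were tested with edgeR 4.0.16 in R 4.3.3 (TMM, filterByExpr, quasi-likelihood test, Benjamini-Hochberg over all genes tested) by batch, with the 3 groups of batch 1 in a common fit, and differences between dose rates of different batches were contrasts over all 21 libraries. The tests were tried on simulated data. The members and lists were chosen with earlier results of these data known. Genes named are every member, the genes of each list past the thresholds (at most 4, or where none passed at most the 2 with the lowest p), and the 5 genes most alike to hspa8 and to hsp90aa1. The percentages of hsp90ab1, and the fits without replicate 1 at 5 mGy/h as comparisons of their own, were chosen after the values had been seen. The fits without control replicate 6 were set after earlier results had shown that library apart for hspa8 and hsp90aa1.

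Replicate numbers were checked for pairing from the deviations of libraries from their group means. In batch 2 the correlation of same-numbered libraries was 0.18 to 0.33 (mean 0.237), over 0.1 in 6 of 6. Among libraries with different numbers it had a mean of -0.045, was over 0.1 in 9 of 30 pairs and reached 0.343. The numbers were treated as pairs in a replicate block only as an alternative, and the main fits held no block. Alternatives were DESeq2 1.42.0, RLE size factors, no count filter, at least 10 counts in every library, robust dispersion, the legacy quasi-likelihood method, unstranded counts, the FDR without a fold change, a fit of all libraries, a fit of the groups compared alone, the replicate block and each library left out in turn.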

Additional observations from a re-analysis of the deposited data

Results flagged for a closer look

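In groups of 6 libraries, the gap between an extreme library and its neighbour was compared with the range of the group by Dixon's criterion, which chance passes in about 1 group of 20. The 9 members gave 18 such groups in batch 2, of which 9 passed, and all 9 were control replicate 6. It was highest for hspa8 (279 CPM, next 145), hsp90aa1 (1148 CPM, next 432), hsp90ab1 (6188 CPM, next 3218), hspa5 (598 CPM, next 235), hspd1 (282 CPM, next 130.3), hspe1 (176 CPM, next 81.8), hspb1 (46.7 CPM, next 21.1) and dnajb1b (15.0 CPM, next 8.78), and lowest for hsf1 (10.2 CPM, next 54.5). The 9 values come from 1 library and are not independent of each other. This library was already known to stand apart for hspa8 and hsp90aa1. Over 17203 genes of at least 1 CPM, it was above all other controls for 43.6% and below them for 42.9%. Dixon's criterion was not applied to all genes, so these counts do not set the members apart from other genes. No group at 0.05 mGy/h passed. Groups of 3 in batch 1 were not compared in this way.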

How the results depend on the processing

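The number of genes called moved more than that of members. At 0.05 mGy/h with all controls, 1 gene was called, and 15 with DESeq2, 0 with the replicate block and 2 in a fit of all libraries, and DESeq2 alone called a member, hspa8 (1 of 9). Without control replicate 6, 8 genes were called, and 19 by the FDR alone and 36 with DESeq2, while the replicate block left 1 member of 2, hspa8. At 0.5 mGy/h, 2 genes were called, and 11 with DESeq2, 1 without a count filter, 0 with at least 10 counts, 1 with the legacy method and 0 in a fit of the groups compared alone. At 5 mGy/h, 1 gene was called, and 88 with DESeq2, and 0 with the replicate block, in a fit of all libraries or of the groups compared alone. For the difference of the change at 0.05 mGy/h from that at 0.5 mGy/h DESeq2 called 3 genes and from that at 5 mGy/h 5 genes, where edgeR called 0. In batch 1, 0 members were called by edgeR or DESeq2. An unadjusted p under 0.05 in edgeR's quasi-likelihood test was reached by 1 of 9 members at 0.5 mGy/h, where 2.51% of 21307 genes reached it. At 5 mGy/h it was reached by 2 of 9, where 6.49% of all genes reached it. In batch 1 same-numbered libraries correlated at -0.56 to 0.11, over 0.1 in 1 of 9 pairs. With 3 libraries in each group these correlations depend on each other, so they cannot show whether the libraries were paired.

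With each library left out in turn, the count of genes called ran from 0 to 8 at 0.05 mGy/h, 2 to 13 when replicate 6 was also left out, 1 to 3 at 0.5 mGy/h and 0 to 1457 at 5 mGy/h, the last without replicate 1 of that group. The count of members ran from 0 to 2, and from 1 to 2 without replicate 6. For the differences between dose rates, genes called ran from 0 to 3 against 0.5 mGy/h and 0 to 1 against 5 mGy/h, and members from 0 to 1 against 5 mGy/h. The log2 fold change of hspa8 ran from 0.97 to 1.29 against all controls and from 1.24 to 1.32 without replicate 6. The sign turned for the following members, none of them called. At 0.05 mGy/h against all controls, the log2 fold changes ran from -0.28 to 0.050 for hsp90ab1, -0.28 to 0.21 for hspa5, -0.25 to 0.16 for hspd1, -0.057 to 0.32 for hspb1 and -0.022 to 0.25 for hsf1. Without replicate 6 they ran from -0.0041 to 0.086 for hsp90ab1 and -0.060 to 0.0040 for hsf1. At 0.5 mGy/h they ran from -0.0084 to 0.061 for hsp90ab1. At 5 mGy/h they ran from -0.19 to 0.11 for hspa8, -0.25 to 0.024 for hsp90aa1, -0.19 to 0.019 for hsp90ab1, -0.023 to 0.18 for hspb1 and -0.53 to 0.060 for hsf1. The cause of these moves was not tested, and in batch 1 each group had 3 libraries.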

Other observations

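The libraries at 0.05 mGy/h were less alike for a few other chaperone genes than for hspa8. These genes were chosen after their values had been seen. The inducible HSP70 gene hsp70l was 19.9 CPM in replicate 1, 4.39 in replicate 2, 3.75 in replicate 3, 1.81 in replicate 4, 11.2 in replicate 5 and 14.1 in replicate 6. The member dnajb1b, in the same order, was 8.65, 3.46, 3.06, 2.14, 10.6 and 6.33 CPM. Both genes were thus lowest in replicates 2, 3 and 4. The small heat shock protein gene hspb6 was 39.1, 30.5 and 38.7 CPM in these 3 libraries and 17.4, 7.62 and 9.77 CPM in replicates 1, 5 and 6. The same 6 libraries spanned only 287 to 354 CPM for hspa8. In the 5 controls other than replicate 6, hsp70l was 8.19 to 13.1 CPM, dnajb1b 5.44 to 8.78 CPM and hspb6 8.76 to 22.6 CPM.

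The other gene named hspa8, ENSDARG00000068992, was 9.21 to 78.9 CPM in the controls of batch 2 and 5.14 to 35.7 CPM at 0.05 mGy/h, with overlap. Replicate 6 was the highest control, and without it the others reached 42.4 CPM, still with overlap. This copy was 3.13 to 63.9 CPM in the controls of batch 1, 70.9 to 103 CPM at 0.5 mGy/h and 41.7 to 60.8 CPM at 5 mGy/h. At 0.5 mGy/h the groups did not overlap (log2 fold change 1.43 with a 95% interval of -0.27 to 3.12), where 4.42% of all genes lay wholly above the controls. It was not called in any of these comparisons.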
